A study of Mus musculus with 39 samples.

Results

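Epiblast stem cells (EpiSCs) are lines grown from the postimplantation epiblast of the mouse. Here the WT EpiSC lines were set against the WT epiblast of embryonic day 6.5 (E6.5). All libraries with these labels were taken, which gave the 2 WT EpiSC lines, numbered 8 and 13, and 9 WT E6.5 epiblasts, 11 of the 39 libraries of the series. The study followed Stat3 null and WT mouse embryos on the CD1 background by bulk RNA-seq of single epiblasts, and derived EpiSC lines of both genotypes. The E6.5 WT epiblasts came from crosses between Stat3 heterozygous mice, each library held 1 epiblast, and the extraembryonic ectoderm and visceral endoderm had been taken off by hand. The WT EpiSC lines were kept on fibronectin in N2B27 medium with FGF2, Activin A and XAV-939, a tankyrase inhibitor that lowers canonical Wnt signalling, and under reduced oxygen. They were derived from E6.5 or E7.5 epiblasts of the same crosses, the labels give no stage for either line, and each line was sequenced as 1 library. The other groups used for reference were 2 WT epiblasts of E5.5, 9 of E7.5, 8 Stat3 null epiblasts of E6.5 and the 2 Stat3 null EpiSC lines, numbered 2 and 6, grown in the same medium. In the null allele a neomycin resistance cassette takes the place of Stat3 exons, and the epiblasts received no treatment.

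Pluripotency changes its form around implantation. Before implantation, in the naive state, Nanog, Klf and Esrrb factors act with Oct4 (Pou5f1) and Sox2. After implantation the epiblast passes through a formative state marked by Fgf5, Otx2 and de novo DNA methyltransferases to a primed state. Primed cells can answer signals for the primitive streak and the ectoderm. EpiSCs hold the primed state in culture through FGF and Activin or Nodal signalling, and without Wnt inhibition they tend to switch on streak genes.

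Total counts were 100108120 to 127583699 in the WT EpiSC libraries and 28837665 to 70922482 in the E6.5 WT libraries, and levels are given as counts divided by the total count and multiplied by 1e6 (CPM). A gene without counts may still be present at up to 3 counts, which is 0.03 CPM in the shallower EpiSC line and at most 0.104 CPM in an epiblast. EpiSC RNA was purified on columns, depleted of ribosomal RNA and built with a NEBNext kit. Epiblast RNA came from a low-input purification and a SMARTer total RNA kit. Kit, purification and culture all go with the group and cannot be told apart. Most weight is given to differences of over 8-fold and to ranks within a library. Smaller differences are given as values, and the kit, the purification and the culture are confounded with each of them. The mitochondrial ribosomal RNA mt-Rnr2 took 0.00115% to 0.00142% of the counts in EpiSCs and 2.43% to 3.34% in epiblasts. Genes with at least 1 count numbered 26698 to 27613 in the EpiSC lines and 17961 to 22310 in the epiblasts, and still 24473 to 25012 against 17581 to 22183 when every library was thinned to the size of the smallest. Among the epiblasts, 1 to 3 had 63991130 to 70922482 counts and 17961 to 19380 genes with counts. Epiblasts 4 to 9 had 28837665 to 36540246 counts but 21117 to 22310 genes, and the part of this in the levels was not tested. Epiblasts 1 to 4 stood apart from epiblasts 5 to 9: the summed level of 18 visceral endoderm markers was 2304, 611, 7330.1 and 1241 CPM in the first 4 and 188 to 352 CPM in the other 5. Counts of genes were therefore also taken without epiblasts 1 to 4, a choice made after the data were seen. In bulk RNA, fewer cells of a type and less RNA per cell cannot be told apart.

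Of 21023 genes tested with edgeR's quasi-likelihood test, 4166 (19.8%) were called, that is, had an absolute log2 fold change over 1 with a Benjamini-Hochberg adjusted p under 0.05. In EpiSCs 2220 (10.6%) of the genes tested were called higher and 1946 (9.26%) lower, and the median log2 fold change of all genes tested was 0.01. A difference is named large here where the fitted fold change passed 8-fold (3 on the log2 scale) with an adjusted p under 0.05 and both lines lay above, or both below, all 9 epiblasts. Large differences numbered 1006 (4.79%), of which 476 (2.26%) were higher and 530 (2.52%) lower in EpiSCs (319 and 664 with DESeq2). Without epiblasts 1 to 4 there were 1605, of which 920 were shared with the same sign, and 6245 of 19886 genes tested (31.4%) were called, 3262 (16.4%) higher and 2983 (15%) lower. Counts on lists without these epiblasts are to be read against those shares. All other list counts are to be read against 10.6% called higher, 9.26% called lower and 4.79% large. For 435 of the higher and 475 of the lower genes the lines lay within 2-fold of each other, in a set whose rule had already put both lines on the same side. The correlation between both lines was 0.995 (across genes, log2 of CPM plus 1, genes not being independent replicates) against 0.951 to 0.992 between epiblasts. The 476 higher genes held 356 protein-coding genes, and in 138 of the 476 no epiblast had over 3 counts. For such genes the counts give only a lower bound, which can lie under 8-fold, as for Notum below. The lower genes held 259 protein-coding genes and 168 processed pseudogenes, and pseudogenes of all kinds made up 35.8% of the lower, 3.15% of the higher and 10.2% of the tested genes. Reads of a pseudogene and of its parent gene can be exchanged in counting, so these calls are uncertain and are not named further. Each p-value measures the spread between these libraries, and 2 lines stand for the EpiSC side.

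The core pluripotency genes were abundant in EpiSCs. None of the 10 differed by a large amount, where 4.79% of all genes tested did, and 10 genes are too few to differ from that share. Called higher were 4 of the 10 (Sox2, Nanog, Tdgf1 and Zfp281), none was called lower, and the median log2 fold change of the list was -0.11. Pou5f1 (ENSMUSG00000024406.16, chromosome 17 of GRCm38, 35506018 to 35510772), which encodes Oct4, had 493 and 439 CPM in lines 8 and 13 and 398 to 681 CPM (median 630.1) in the epiblasts. The lines lay inside the epiblast range, and the log2 fold change was -0.32 (SE 0.14, adjusted p = 0.11). Utf1, a chromatin protein of pluripotent cells, had 241 and 258 CPM against 187 to 287 CPM (median 244), again within the epiblast range. At E7.5 the median of Utf1 was 15.4 CPM, below both lines. Foxd3, a repressor needed to keep the epiblast pluripotent, had 54.4 and 40.4 CPM against 27 to 75.9 CPM at E6.5 and a median of 0.115 CPM at E7.5. L1td1, Lin28a and Sall4 were not called, with log2 fold changes of -0.53, -0.28 and -0.62.

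Sox2, the partner of Oct4, had 163 and 146 CPM in EpiSCs and 35.9 to 60.1 CPM (median 49.4) in the epiblasts. Both lines lay above every epiblast, and the log2 fold change was 1.71 (SE 0.16, adjusted p = 2e-06). Nanog had 187 and 142 CPM in the lines and 16.7 to 51.5 CPM (median 38.4) in the epiblasts, with a log2 fold change of 2.29 (SE 0.39, adjusted p = 0.0006). Among the epiblasts, 1 to 4 held 16.7 to 23.1 CPM of Nanog and 5 to 9 held 38.4 to 51.5 CPM, and all lay below the lines. Tdgf1, the Nodal co-receptor Cripto, had 382 and 326 CPM against 40.4 to 182 CPM (median 114), with a log2 fold change of 1.68 (SE 0.39, adjusted p = 0.0056). The call of Zfp281 at a log2 fold change of 1.0 sat on the threshold and was lost in 12 of 23 other settings.

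Ranks within a library do not depend on scaling between libraries. Counts were divided by exon length and ranked among 21620 protein-coding genes, 1 being the highest. Pou5f1 ranked 125 and 132 in lines 8 and 13 and 96 to 162 (median 113) in the E6.5 epiblasts. Sox2 ranked 371 and 402 in the lines and 1308 to 2241 in the epiblasts, and Nanog 350 and 457 against 1641 to 4515. The median rank of the 10 core genes was 285 and 324 in the lines, 390 to 849 (median 563) over the epiblasts and 2059 at E7.5. So the median core rank of both lines was ahead of that of each of the 9 epiblasts, while Pou5f1 ranked among them. Without division by length the median ranks were 435 and 454 in the lines and 791 to 1228 in the epiblasts.

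**Figure D1:**
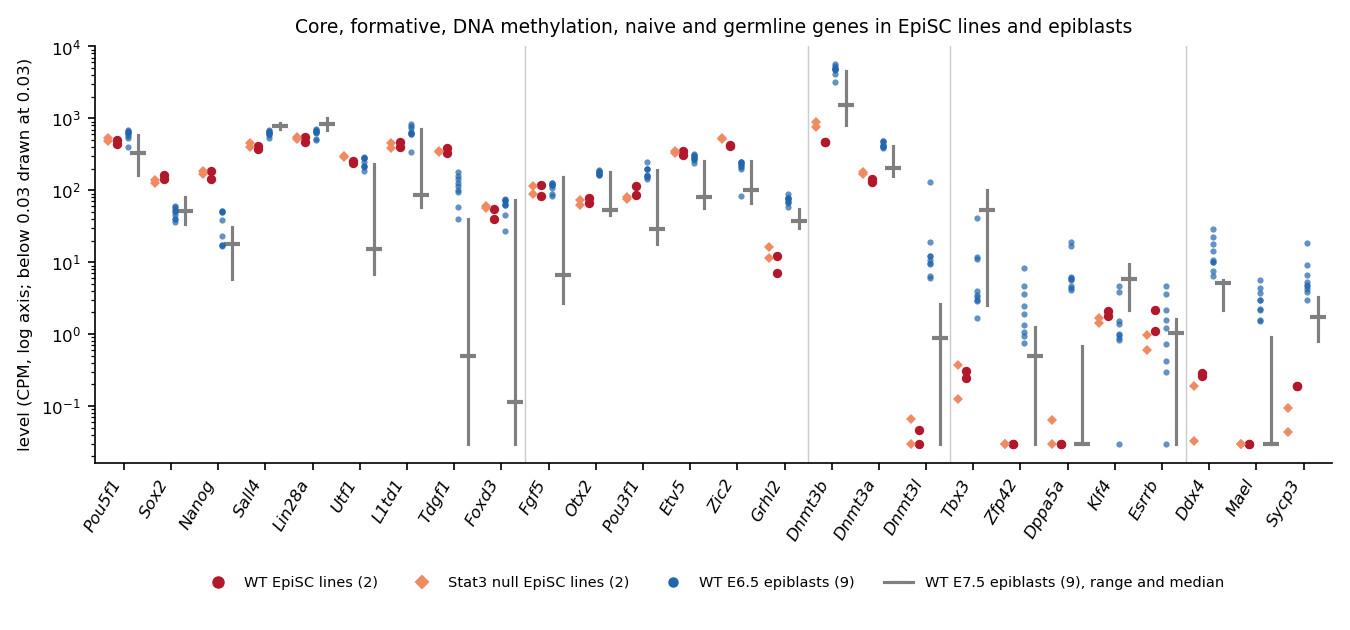
Levels (CPM, log axis) of core, formative, DNA methylation, naive and germline genes, from left to right between the grey lines, with 1 point for each WT EpiSC line, Stat3 null EpiSC line and WT E6.5 epiblast and a bar for the range and median of 9 WT E7.5 epiblasts. Pou5f1 and Fgf5 of the lines sit among the E6.5 points, Sox2 and Nanog above all of them, and Dnmt3b, Dnmt3l, Zfp42, Dppa5a, Ddx4, Mael and Sycp3 below all of them.

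Formative and primed genes were mostly within a few-fold of the epiblast, apart from the DNA methyltransferases. Of 13 genes, Zic2 and Zic5 were called higher, Otx2, Dnmt3a, Dnmt3b and Grhl2 were called lower, only Dnmt3b was large, and the median log2 fold change was -0.10. Fgf5, the ligand that marks the formative epiblast, had 118 and 83.8 CPM in the lines and 83.6 to 125 CPM (median 117) in the epiblasts. Both lines lay inside the E6.5 range, while the E7.5 median was 6.54 CPM. Otx2, a transcription factor of the primed epiblast and later forebrain, had 78.1 and 66.4 CPM against 162 to 192 CPM, with a log2 fold change of -1.25 (SE 0.12, adjusted p = 2.2e-06). Grhl2, an activator of epithelial genes, had 7.08 and 12.3 CPM against 59.3 to 89.2 CPM, with a log2 fold change of -2.90 (SE 0.22, adjusted p = 4.1e-07), just short of the 8-fold limit. Zic2 was called at a log2 fold change of 1.02 only, and the call was lost in 11 of 23 other settings.

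De novo DNA methylation genes were lower in EpiSCs. Of 8 DNA methylation genes 3 (Dnmt3a, Dnmt3b and Dnmt3l) were called lower, 1 (Tet2) higher, 2 were large, and the median log2 fold change was -0.85. Dnmt3b (ENSMUSG00000027478.15, chromosome 2, 153649450 to 153687730) had 476 and 466 CPM in the lines and 3164 to 5626 CPM (median 4848) in the epiblasts. It ranked 12 to 30 in the epiblasts and 307 and 303 in the lines. Its log2 fold change was -3.29 (SE 0.19, adjusted p = 2.8e-08), and it was large in all 23 other settings. Dnmt3a, the other de novo enzyme, had 145 and 130 CPM against 384 to 489 CPM, a log2 fold change of -1.62 (SE 0.13, adjusted p = 6.9e-07). Dnmt3l, their cofactor without catalytic activity, had no count in line 8 and 0.047 CPM in line 13, and 5.94 to 132 CPM (median 10.7) in the epiblasts. Epiblast 3 held the 132 CPM and the other 8 held 5.94 to 19.2 CPM, all above the lines. The call of Dnmt3l was lost without either line. The maintenance genes Dnmt1 and Uhrf1 had log2 fold changes of -0.96 and -0.73 and were not called, and Tet2, which oxidises methylcytosine, was called higher (26.6 and 27.6 CPM against 4.46 to 22.7 CPM, log2 fold change 1.77, adjusted p = 0.012). Stat3 null lines held 749 and 891 CPM of Dnmt3b, below the 2454 to 4650 CPM of null E6.5 epiblasts.

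A few naive genes were nearly silent in EpiSCs and most of the others overlapped with the epiblast. Of 12 genes tested, 3 (Tbx3, Zfp42 and Dppa5a) were called lower, all of them large, none was called higher, and the median log2 fold change was -0.95. Zfp42 (Rex1), a reporter gene of the naive state, had no count in either line and 0.761 to 8.27 CPM (median 1.91) in the epiblasts. Dppa5a likewise had no count in the lines and 4.06 to 19.3 CPM (median 5.81) in the epiblasts. With the epiblast mean set against 3 counts in the shallower line, Zfp42 was at least 92.6-fold and Dppa5a at least 269.6-fold lower in EpiSCs (adjusted p = 0.00055 and 3e-05). Tbx3, a factor shared by naive cells and extraembryonic endoderm, had 0.31 and 0.243 CPM against 1.7 to 41.2 CPM (log2 fold change -5.03, SE 1.49, adjusted p = 0.02), the top value again in epiblast 3. The call of Tbx3 was lost without either line. Klf4 (1.8 and 2.11 CPM in the lines, 0 to 4.63 CPM in the epiblasts) and Esrrb (1.09 and 2.15 against 0 to 4.74 CPM) overlapped fully between groups. Klf2 had 3.82 and 3.57 CPM in the lines, above the 0 to 1.27 CPM of the epiblasts, and did not pass the test (adjusted p = 0.091). The summed level of 14 naive genes was 57.1 and 59 CPM in the lines, 55.7 to 221 CPM in epiblasts 1 to 4 and 21.5 to 32.4 CPM in epiblasts 5 to 9, and the part of the visceral endoderm transcripts in this was not tested. Without epiblasts 1 to 4, Klf2 and Klf5 were large and higher, and Dppa3, Dppa5a, Tbx3 and Zfp42 large and lower.

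Germline genes were low in both lines. Meiotic and germ cell genes are known to be switched on briefly around implantation and then shut by promoter DNA methylation and by a Polycomb complex whose members MGA and MAX bind the E-box CACGTG. Of 8 germline genes tested, Ddx4, Mael and Sycp3 were called lower and large, none was called higher, and the median log2 fold change was -5.08. Among the 12 lower protein-coding genes ranked by size of change were also 4930447C04Rik, which encodes the synaptonemal complex protein Six6os1, and Fmr1nb, a cancer-testis gene. The promoter windows of Ddx4, Mael, Sycp3, Dazl, 4930447C04Rik and Fmr1nb were looked up. Dazl and Fmr1nb, the latter also large and lower, hold no CACGTG. The windows of the 4 genes that hold it are shown, picked for the motif alone. Each runs from 250 bases before to 50 bases after the RefSeq start (RefSeq, GRCm38.p6), 5′ to 3′ on the strand of the gene, with CACGTG in capitals.
Ddx4, chr13:112652261-112652560, minus strand: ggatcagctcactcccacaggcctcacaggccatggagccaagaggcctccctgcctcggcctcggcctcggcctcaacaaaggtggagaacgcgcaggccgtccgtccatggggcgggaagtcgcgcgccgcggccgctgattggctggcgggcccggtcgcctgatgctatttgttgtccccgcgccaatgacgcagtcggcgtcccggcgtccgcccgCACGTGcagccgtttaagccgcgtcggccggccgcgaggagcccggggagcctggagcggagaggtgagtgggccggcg
Mael, chr1:166238695-166238994, minus strand: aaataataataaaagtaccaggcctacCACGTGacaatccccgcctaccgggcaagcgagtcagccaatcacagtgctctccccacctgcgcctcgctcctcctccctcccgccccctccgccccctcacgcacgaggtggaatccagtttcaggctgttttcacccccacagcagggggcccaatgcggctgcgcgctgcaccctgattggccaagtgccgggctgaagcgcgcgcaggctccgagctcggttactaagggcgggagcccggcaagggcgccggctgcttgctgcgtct
Sycp3, chr10:88459337-88459636, plus strand: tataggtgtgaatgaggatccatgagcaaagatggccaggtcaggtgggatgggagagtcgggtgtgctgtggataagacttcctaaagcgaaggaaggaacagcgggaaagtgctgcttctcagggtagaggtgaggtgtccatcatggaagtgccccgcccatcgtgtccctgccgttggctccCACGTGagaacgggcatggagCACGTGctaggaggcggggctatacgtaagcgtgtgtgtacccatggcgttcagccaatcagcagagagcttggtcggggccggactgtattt
4930447C04Rik, chr12:72917716-72918015, minus strand: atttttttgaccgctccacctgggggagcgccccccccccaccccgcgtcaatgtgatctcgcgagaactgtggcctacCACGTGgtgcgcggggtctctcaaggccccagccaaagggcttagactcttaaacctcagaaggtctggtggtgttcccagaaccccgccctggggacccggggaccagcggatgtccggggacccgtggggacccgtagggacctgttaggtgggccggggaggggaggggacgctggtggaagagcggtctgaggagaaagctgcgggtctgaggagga

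CACGTG, the same on both strands, was found once in the windows of Ddx4, Mael and 4930447C04Rik and in 2 places in that of Sycp3, and it was found in 2349 of 32851 windows of the same length (7.15%). The letters were not in the windows of Dazl and Fmr1nb. TCCCGC, the core of the E2F motif, searched on either strand and nowhere overlapping CACGTG in these windows, was in the windows of Ddx4, Mael (2 matches) and Sycp3, not in those of Dazl, 4930447C04Rik and Fmr1nb, and in 20% of all windows. The windows of Ddx4, Mael, Sycp3 and 4930447C04Rik held 38, 24, 15 and 19 CG dinucleotides and those of Dazl and Fmr1nb, which lack CACGTG, 28 and 9, where the median of all windows was 7 and the upper quartile 20. The RefSeq start of 4930447C04Rik lies inside the longer gene model of the annotation used for positions (chromosome 12, 72881109 to 72940774). Letter matches are a description and no evidence of binding.

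Ddx4 (Vasa), an RNA helicase of germ cells, had 0.29 and 0.259 CPM in the lines and 6.51 to 28.8 CPM (median 10.6) in the epiblasts, a log2 fold change of -5.67 (SE 0.74, adjusted p = 4.5e-05). Mael, a piRNA pathway protein, had no count in either line and 1.54 to 5.7 CPM (median 2.98) in the epiblasts, and by the epiblast mean was at least 101-fold lower in EpiSCs (adjusted p = 2.1e-05). Sycp3, an axial element of meiotic chromosomes, had 0.19 and 0.188 CPM against 3.02 to 18.7 CPM (median 4.87), a log2 fold change of -5.12 (SE 0.86, adjusted p = 0.00041). In all of these every epiblast lay above both lines, and Ddx4, Mael and Sycp3 stayed large in all 23 other settings. 4930447C04Rik had no count in the lines and 8.03 to 34.5 CPM in the epiblasts, by the epiblast mean at least 569-fold lower in EpiSCs (adjusted p = 5.3e-06). Fmr1nb had no count in line 8, 3 counts in line 13 and 4.96 to 40.9 CPM in the epiblasts (adjusted p = 7.9e-05). Dazl had 0 to 3.39 CPM in the epiblasts and none or 3 counts in the lines and did not pass the test (adjusted p = 0.064), and the early germ cell genes Prdm1, Tfap2c and Nanos3 were not called. At E7.5 the medians were already 5.09 CPM for Ddx4, 0 for Mael and 1.71 CPM for Sycp3, so the lines lay below the later stage for Ddx4 and Sycp3 too. The null EpiSC lines held 0.189 and 0.0327 CPM of Ddx4 and no count of Mael or 4930447C04Rik.

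Nodal binds Activin type receptors with the co-receptor Cripto and acts through Smad2 and Smad3, and Lefty1, Lefty2 and Smad7 are among its targets, the Lefty proteins and Smad7 acting back on it as inhibitors. Of 14 genes 7 were called higher and none lower, Lefty1 was among the large differences, and the median log2 fold change was 1.0 (7 higher and 1 lower without epiblasts 1 to 4). Nodal itself had 80.9 and 64.2 CPM in the lines and 11.2 to 30.2 CPM (median 20.2) in the epiblasts, a log2 fold change of 1.95 (SE 0.26, adjusted p = 6.2e-05). Of the receptors and Smads, Acvr2a and Smad3 were called higher with log2 fold changes of 1.90 and 1.63. Acvr1b, Acvr2b and Smad2 were not called (0.01, -0.90 and 0.55). Among the targets, Lefty1 (ENSMUSG00000038793.8, chromosome 1, 180935022 to 180938400) had 356 and 229 CPM in the lines and 0.694 to 23.2 CPM (median 1.54) in the epiblasts. It ranked 141 and 215 in the lines and 2924 to 11568 in the epiblasts, of which only 1 and 3 were above 2 CPM (7.71 and 23.2 CPM). The log2 fold change was 6.02 (SE 1.10, adjusted p = 0.002). Smad7 had 328 and 287 CPM against 90.6 to 157 CPM (log2 fold change 1.45, SE 0.16, adjusted p = 7.9e-06). Lefty2, the neighbour and paralogue of Lefty1, had 8.15 and 7.05 CPM against 1.75 to 18.7 CPM, and both lines fell inside the epiblast range. The lines grew with added Activin A, an agonist that the epiblasts were not given, and its part in these levels was not tested.

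FGF signalling genes gave 4 calls higher (Fgfr2, Spry2, Spry4 and Dusp6), 1 lower (Spry1) and no large difference among 16, with a median log2 fold change of 0.40. Dusp6, a phosphatase that is induced by ERK and switches it off, had 659 and 572 CPM in the lines and 71.3 to 102 CPM (median 93.5) in the epiblasts. Its log2 fold change of 2.80 (SE 0.10, adjusted p = 6.1e-10) was just under the 8-fold limit, and in the null libraries, where it was 3.43, the difference was large. Spry4, another feedback inhibitor, had 250 and 229 CPM against 80.3 to 143 CPM, and Spry2 180 and 131 against 44.4 to 80.1 CPM. Their log2 fold changes were 1.37 and 1.24 (adjusted p = 5.1e-05 and 5.5e-05). Spry1 went the other way, with 9.15 and 11.5 CPM against 30.5 to 47.9 CPM (log2 fold change -1.87, SE 0.21, adjusted p = 1.3e-05). The Ets factors Etv4 and Etv5 were not called (0.42 and 0.24), nor was Fgf4 (12.9 and 11.7 CPM against 5.42 to 89.6 CPM).

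Immediate early genes, which growth factor and stress signals switch on within minutes, included 4 large differences, all higher in EpiSCs. Of 12 genes 5 were called higher (Jun, Junb, Egr1, Atf3 and Btg2), none lower, and the median log2 fold change was 2.06. Egr1, a target of ERK, had 432 and 361 CPM in the lines and 3.31 to 10.3 CPM (median 8.33) in the epiblasts. It ranked 297 and 343 in the lines and 8046 to 10694 in the epiblasts, with a log2 fold change of 5.87 (SE 0.32, adjusted p = 4.8e-08). Btg2, an antiproliferative gene, had 64.7 and 69.3 CPM against 0.508 to 15.5 CPM, and Atf3, a stress factor, 30.5 and 18.9 CPM against 0 to 1.97 CPM. Their log2 fold changes were 3.26 and 5.55 (adjusted p = 0.00073 and 0.0049). Junb had 45.2 and 54.5 CPM against 2.61 to 17.4 CPM (log2 fold change 3.11, adjusted p = 0.0002). Fos, by contrast, had 15.3 and 11 CPM against 0 to 8.7 CPM and did not pass the test (adjusted p = 0.19), and Dusp1, Ier3, Fosb and Zfp36 overlapped between groups. Cells of a line and of a dissected epiblast were collected in different ways, and its part in these levels was not tested.

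**Figure D2:**
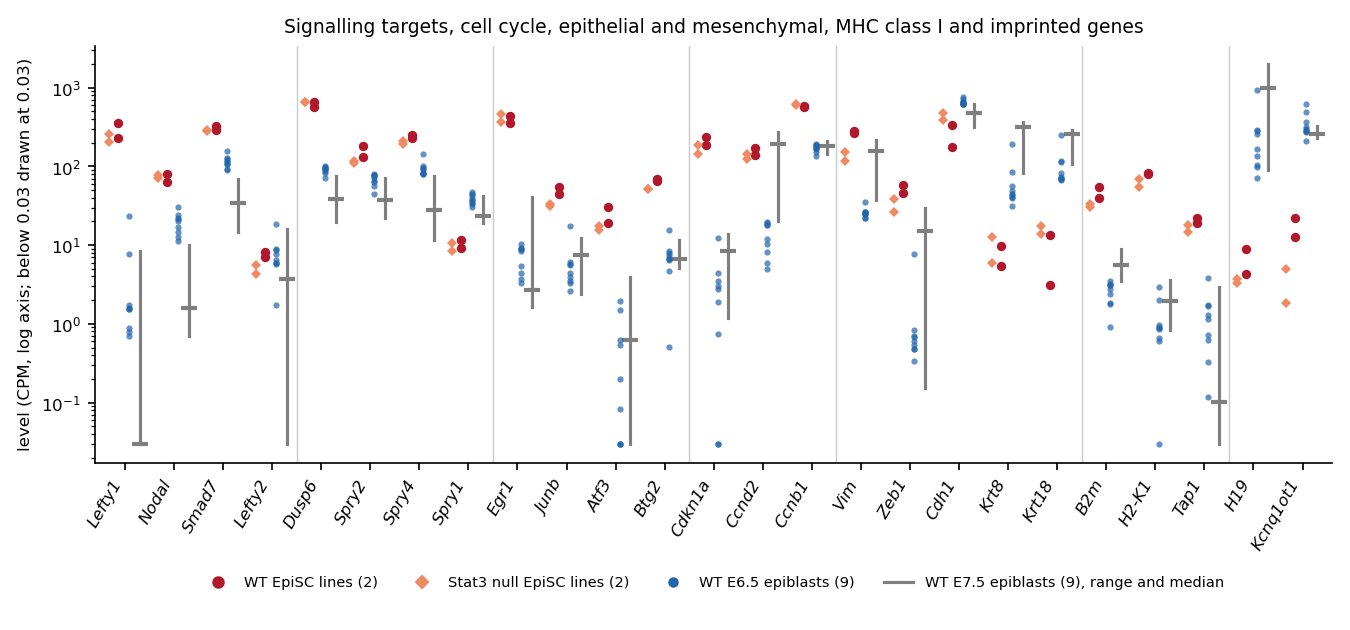
Levels (CPM, log axis) of Nodal targets, FGF feedback genes, immediate early genes, cell cycle genes, epithelial and mesenchymal genes, antigen presentation genes and imprinted genes, between grey lines from left to right, with 1 point for each EpiSC line and WT E6.5 epiblast and a bar for the range and median of 9 WT E7.5 epiblasts. Lefty1, Egr1, Cdkn1a, Vim and H2-K1 of the WT lines lie above all E6.5 points, and Spry1, Krt8, Krt18, H19 and Kcnq1ot1 below them.

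The Wnt list gave 2 calls higher (Wnt3 and Notum) and 1 lower (Axin2) among 17 genes, with a median log2 fold change of -0.07. These counts are near the shares of all genes tested, 10.6% called higher and 9.26% lower. Axin2, a feedback target of canonical Wnt signalling, had 18.3 and 13.6 CPM in the lines and 42.5 to 123 CPM (median 98.1) in the epiblasts, a log2 fold change of -2.31 (SE 0.46, adjusted p = 0.0018). The call was lost without line 13. The ligand Wnt3, which starts the streak in the posterior epiblast, had 55.2 and 40.7 CPM against 1.26 to 23.7 CPM (log2 fold change 2.2, adjusted p = 0.023). The call of Wnt3 was lost without either line. Sp5, another direct target, had 18.1 and 8 CPM against 0.174 to 37.9 CPM and was not called, and Lef1, Tcf7 and Tcf7l1 had log2 fold changes of 0.09, -0.07 and -0.52. Notum, a Wnt deacylase, was not counted in any epiblast and had 0.46 and 0.376 CPM in the lines (adjusted p = 0.02). It passed as large in the fit, but by the mean of the lines the counts bound it only at 4.02-fold or more. Its call was lost in 3 of 21 settings.

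BMP genes gave 1 call in each direction among 12, Id2 higher (28.6 and 31 CPM against 1.91 to 18.3 CPM, log2 fold change 2.09, adjusted p = 0.037) and Msx1 lower (4.18 and 1.68 CPM against 5.51 to 8.5 CPM, log2 fold change -1.13, adjusted p = 0.038). Both calls were lost in several settings, 7 and 9 of 23, and the median of the list was 0.34. Of all genes tested 10.6% were called higher and 9.26% lower, and the BMP counts are near these shares. JAK and STAT genes gave 4 calls higher (Jak2, Stat5b, Il6st and Bcl3) and 1 lower (Lifr) among 14, with a median of 1.10. Stat3 had 17.8 and 23 CPM in the WT lines and 5.84 to 27.2 CPM (median 11.6) in the epiblasts, within 1 range and not called. Il6st, the gp130 receptor chain, had 50.3 and 52.9 CPM against 17.7 to 28.8 CPM, and its partner Lifr, the LIF receptor, 17.7 and 15.4 CPM against 33.4 to 60.6 CPM. Their log2 fold changes were 1.10 and -1.44 (adjusted p = 0.00011 and 7.3e-05). Jak2 had 25 and 17.9 CPM against 1.44 to 5.39 CPM (log2 fold change 2.82, SE 0.43, adjusted p = 0.00016). The STAT3 target Socs3 had 8.13 and 6.94 CPM against 0 to 6.47 CPM and did not pass the test (adjusted p = 0.39). Bcl3 was the large difference of the list, at 0.709 and 1.71 CPM against at most 0.277 CPM, and its call was lost in 9 of 22 settings.

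Most cell cycle genes lay close to the epiblast, and 2 regulators did not. Of 16 genes, Ccnb1, Ccnd2 and Cdkn1a were called higher, none lower, Ccnd2 and Cdkn1a were large, and the median was 0.34. Cdkn1a, the p21 inhibitor of cyclin-dependent kinases and a p53 target, had 189 and 236 CPM in the lines and 0 to 12.4 CPM (median 2.74) in the epiblasts, a log2 fold change of 6.08 (SE 1.22, adjusted p = 0.0034). Ccnd2, cyclin D2, had 172 and 138 CPM against 4.98 to 19.6 CPM (log2 fold change 3.64, SE 0.37, adjusted p = 8.1e-06). Every epiblast lay below both lines for these 2 genes, and the E7.5 median of Ccnd2 was 195 CPM, within which range the lines fell. Ccnb1, cyclin B1, had 592 and 572 CPM against 137 to 192 CPM (log2 fold change 1.80, SE 0.10, adjusted p = 2.4e-08). The proliferation markers Mki67, Top2a, Mcm2, Mcm5 and Pcna had log2 fold changes of -0.30, -0.30, -0.82, -0.58 and -0.71 and were not called. In the hypoxia and glycolysis list, Slc2a3 and Ndrg1 were called higher and Ldha lower among 15 genes, with a median of 0.33. Ldha, lactate dehydrogenase, had 682 and 537 CPM against 1043 to 1667 CPM (log2 fold change -1.15, adjusted p = 6.3e-05). The lines grew under reduced oxygen, whose part in this level was not tested. Slc2a3, a glucose transporter, lost its call in 15 of 23 settings, and without epiblasts 1 to 4 the list held 8 calls higher and 1 lower, where 16.4% and 15% of all genes were called.

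Genes of cell adhesion and shape were called in both directions. Of 16 adhesion and EMT genes, 5 were called higher (Vim, Snai2, Zeb1, Itgav and Itgb1) and 2 lower (Cdh1 and Cldn6), with a median of 0.33. Vim, the intermediate filament vimentin, had 268 and 286 CPM in the lines and 22 to 35.6 CPM (median 24.9) in the epiblasts. Its ranks were 569 and 503 in the lines and 4401 to 6085 in the epiblasts, and its log2 fold change was 3.45 (SE 0.13, adjusted p = 1.1e-09). Zeb1, a repressor of E-cadherin, had 57.8 and 46.3 CPM against 0.338 to 7.72 CPM (log2 fold change 5.23, SE 0.91, adjusted p = 0.00082), the 7.72 CPM being epiblast 3 and the other 8 below 1 CPM. Cdh1, E-cadherin, had 177 and 334 CPM in lines 8 and 13 and 618 to 765 CPM in the epiblasts, a log2 fold change of -1.35 (SE 0.18, adjusted p = 5.7e-05). The lines differed here by nearly 2-fold, and both lay below every epiblast. Cdh2, N-cadherin, had 59 and 66.6 CPM against 13.7 to 72.1 CPM (log2 fold change 1.19) and was not called. The mesenchymal genes Zeb2, Fn1 and Snai1 had log2 fold changes of 1.91, -0.56 and -1.21 and were not called either. Krt8 had 9.83 and 5.42 CPM against 31.2 to 191 CPM, and its partner Krt18 had 13.4 and 3.11 CPM against 67.5 to 251 CPM, a log2 fold change of -3.06 for Krt8 (adjusted p = 0.011) and of -3.60 for Krt18 (adjusted p = 0.0042). Both keratins peaked in epiblast 3, and without epiblasts 1 to 4 Krt18 stayed large and Krt8 did not. The call of Krt8 was lost without either line and that of Krt18 without line 13.

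Of the 11 cytoskeletal and SRF or YAP target genes tested, 4 were called higher and 2, the keratins, lower, with a median of 1.16. Acta2, smooth muscle actin, was not counted in any epiblast and had 4.08 and 16.5 CPM in lines 8 and 13. By the mean of the lines it was at least 98.7-fold higher (adjusted p = 0.00037), and the bound for line 8 alone is lower. Ctgf and Cyr61, targets of YAP, had 61.2 and 33.9 CPM against 1.9 to 17.5 CPM and 68.6 and 68.1 CPM against 4.82 to 44.5 CPM, and their log2 fold changes were 3.16 and 2.47 (adjusted p = 0.0015 and 0.0088). Both groups were separate for these genes. Myl9, Tagln and Cnn1 were not called.

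Some genes of class I antigen presentation were higher in EpiSCs and others were lower or not called. Of 12 interferon and antigen presentation genes, 4 were called higher (B2m, H2-K1, H2-D1 and Tap1), none lower, 3 were large, and the median was 0.81. H2-K1, a class I heavy chain, had 80 and 82.7 CPM in the lines and 0 to 2.95 CPM (median 0.874) in the epiblasts, a log2 fold change of 6.27 (SE 0.77, adjusted p = 5.6e-05). B2m, the light chain, had 39.9 and 54.4 CPM against 0.918 to 3.55 CPM (log2 fold change 4.26, SE 0.33, adjusted p = 3.8e-07). Tap1, which moves peptides to class I molecules, had 19 and 22.4 CPM against 0.116 to 3.77 CPM (log2 fold change 4.03, adjusted p = 0.00052). The interferon induced genes Ifit1, Ifit3, Irf7 and Ifitm3 were not called. Of the other members that act in antigen processing, Tap2, the partner of Tap1, and the immunoproteasome subunits Psmb8 and Psmb9 had log2 fold changes of 0.33, -2.84 and 1.28 and were not called. Outside the lists, the class I genes H2-M3 and H2-Q6, chosen after their values were seen, were large and lower in EpiSCs (log2 fold change -3.67, adjusted p = 0.0077, and -3.02, adjusted p = 0.029), and both calls were lost without either line. H2-K1, H2-D1 and H2-Q6 have close paralogues, and counts could be split between them.

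Among 20 imprinted genes, 4 were called higher (Plagl1, Nnat, Grb10 and Phlda2) and 2 lower (H19 and Kcnq1ot1), with a median of 0.26. H19, a maternally expressed noncoding RNA, had 9.01 and 4.3 CPM in the lines and 71 to 949 CPM (median 167) in the epiblasts, a log2 fold change of -5.29 (SE 1.32, adjusted p = 0.011). The call of H19 was lost without either line. Kcnq1ot1, a paternally expressed noncoding RNA that silences its neighbours, had 12.7 and 21.9 CPM against 208 to 620.3 CPM (log2 fold change -4.30, SE 0.48, adjusted p = 2.5e-05). For both, all 9 epiblasts lay above both lines, and Phlda2, which lies in the domain that Kcnq1ot1 controls, was called higher (23.9 and 14.2 CPM against 1.81 to 5.39 CPM, log2 fold change 2.31, adjusted p = 0.00026). Cdkn1c of the same domain was not called, at 30.9 and 18.1 CPM against 8.7 to 44.1 CPM. Igf2, the neighbour of H19, was not called either, at 42.3 and 53.7 CPM against 7.5 to 93.8 CPM. Meg3 and Snrpn had log2 fold changes of 0.07 and 0.06. The null lines held 3.7 and 3.26 CPM of H19 and 1.86 and 5 CPM of Kcnq1ot1, below all null epiblasts.

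**Figure D3:**
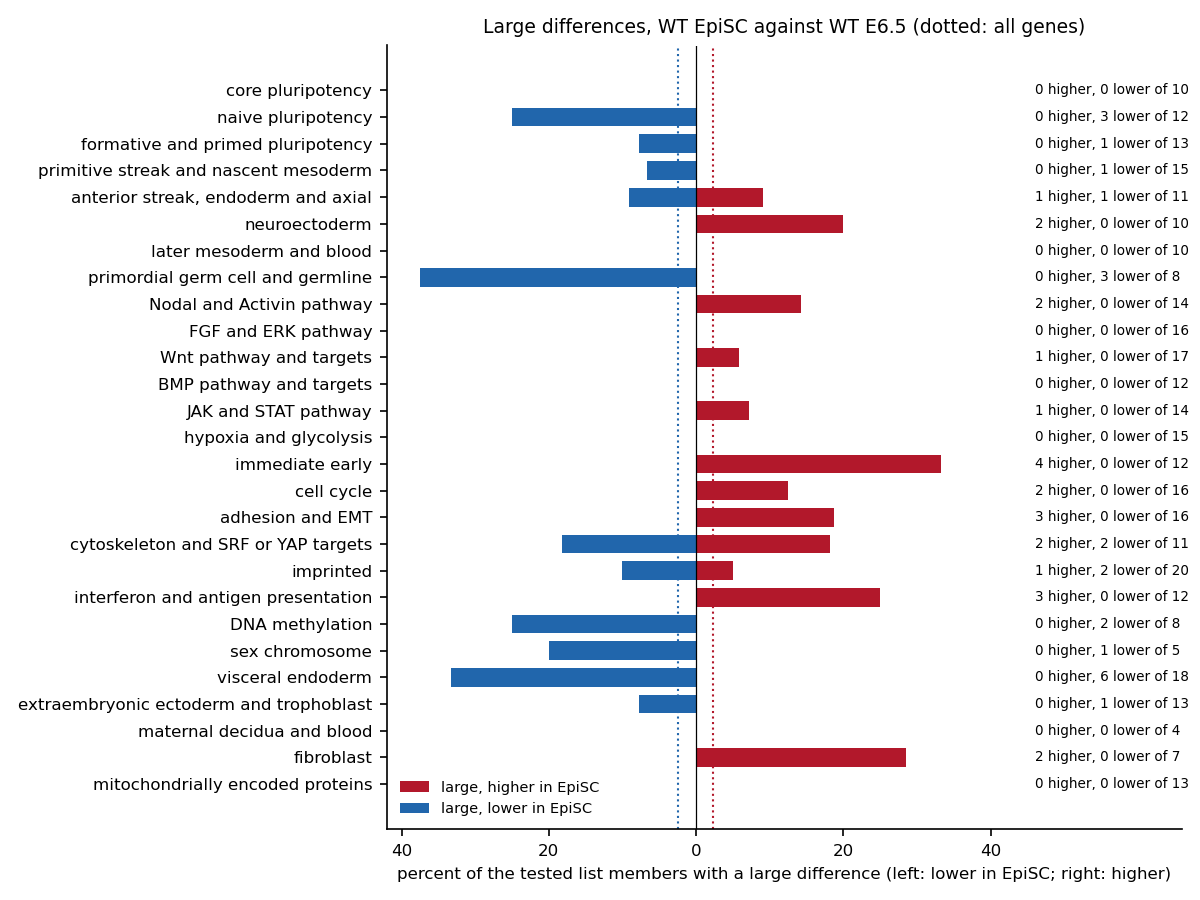
Share of the tested members of each gene list with a large difference between WT EpiSC lines and WT E6.5 epiblasts (percent, higher to the right in red, lower to the left in blue), with the counts at the right and dotted lines for all genes tested (2.26% higher and 2.52% lower). Germline and visceral endoderm lists reach furthest to the left, the immediate early list furthest to the right, and the core pluripotency list has no bar.

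The counts on several lists depended on epiblasts 1 to 4. Without them 16.4% of all genes tested were called higher and 15% lower, against 10.6% and 9.26% with them. At the same thresholds the calls were then 3 higher and 4 lower among 12 naive genes, 1 higher and 6 lower among 8 germline genes, 8 higher and 1 lower among 14 JAK and STAT genes, and 8 higher among 12 immediate early genes. They were also 7 higher and 2 lower among 16 adhesion and EMT genes, 6 higher and 2 lower among 11 cytoskeletal genes, 8 higher and 2 lower among 20 imprinted genes, 3 higher and 4 lower among 17 Wnt genes, and 3 higher and 1 lower among 12 BMP genes. The core (4 higher) and formative (2 higher and 4 lower) counts were the same with and without them. The summed level of the visceral endoderm list moved with these samples, and its part in the other lists was not tested.

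Primitive streak genes were uneven among the epiblasts, which sets how far they can be compared. T (brachyury) had 22.1 and 13.2 CPM in lines 8 and 13, 0 to 3.78 CPM in epiblasts 1 to 4 and 22.5 to 59.6 CPM in epiblasts 5 to 9. Line 8 was close to epiblast 5, the lowest of those 5, and line 13 lay between both sets. The summed streak list was 381 and 227 CPM in the lines, 140.2 to 220.1 CPM in epiblasts 1 to 4 and 491 to 846 CPM in epiblasts 5 to 9. Of 15 genes tested Nodal and Wnt3 were called higher and Evx1 lower, and the median was -1.20. Evx1, a posterior streak factor, had 0.37 and 0.141 CPM against 0.672 to 22 CPM (log2 fold change -5.14, SE 1.49, adjusted p = 0.019), and its call was lost with epiblasts 1 to 3 alone and without either line. Eomes, a streak and endoderm regulator, had 152 and 71.2 CPM against 83.9 to 456 CPM, and Mixl1 6.91 and 2.97 CPM against 0.565 to 100 CPM, and neither was called. Without epiblasts 1 to 4 the streak list held 9 calls lower and 2 higher among 15, in a setting that called 15% of all genes lower and 16.4% higher, with Evx1, Mesp1, Mesp2 and Mixl1 large and lower. Line 8 held more than line 13 of T, Mixl1 and Eomes, and with 1 library each this difference between lines was not tested.

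Genes of the anterior streak, endoderm and axial mesoderm gave 3 calls lower (Otx2, Foxa2 and Gsc) and 1 higher (Shh) among 11, with a median of -0.81. Foxa2, a forkhead factor of definitive endoderm and node, had 2.39 and 0.909 CPM in the lines. In the epiblasts it had 4.12 to 40.1 CPM (median 15.2), a log2 fold change of -3.48 (SE 0.84, adjusted p = 0.0062). The call of Foxa2 was lost with epiblasts 1 to 3 alone and without line 13. The paper stained CER1 and FOXA2 as visceral endoderm markers, and the part of that tissue in their epiblast levels was not tested. Shh, the axial signal, had no count in any E6.5 epiblast, 4.79 and 1.44 CPM in the lines and a median of 9.34 CPM at E7.5. By the mean of the lines it was at least 30-fold higher than at E6.5 (adjusted p = 0.0029), and the bound for line 13 alone is lower. In the lines Sox17 (6.32 and 2.78 CPM) and Cer1 (12.7 and 4.73 CPM) were not called. Neuroectoderm genes gave 3 calls higher (Nes, Sox1 and Ncam1) and none lower among 10, with a median of 0.67. Ncam1, a neural adhesion molecule, had 57.5 and 42.8 CPM against 0 to 8.14 CPM (log2 fold change 3.70, SE 0.84, adjusted p = 0.0049). Sox1, the earliest neural marker, had 8.02 and 14.6 CPM against 0 to 4.03 CPM (log2 fold change 3.06, adjusted p = 0.039), and its call was lost in 9 of 23 settings. Pax6, Six3 and Lhx2 had under 1.1 CPM in each line and were not called. Among 10 later mesoderm and blood genes, Runx1 was called higher (47.4 and 15.3 CPM against 1.39 to 9.2 CPM, log2 fold change 2.45, adjusted p = 0.0011) and Pdgfra lower (1.83 and 1.07 CPM against 2.57 to 18.4 CPM, log2 fold change -2.62, adjusted p = 0.015), with a median of -2.10.

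Visceral endoderm markers, a tissue that the dissection could leave behind, were low or absent in the lines. Of 18 visceral endoderm genes 7 were called lower, 6 of them large, none higher, and the median was -9.16, or -6.78 with genes without counts in the lines set at their bound. Without epiblasts 1 to 4, 13 were called lower and 8 were large, with a median of -5.77. Afp, Ttr, Apoa4, Fgb and Pla2g12b had no count in either line. Apob, a lipoprotein of visceral endoderm, had 0.2 and 0.118 CPM in the lines and 21.1 to 2637 CPM (median 74.1) in the epiblasts, and Hnf4a, a regulator of that tissue, at most 0.0314 CPM against 1.48 to 98 CPM. Both peaked in epiblast 3, and both calls were lost without either line. The summed level of the list was 88.2 and 90.6 CPM in the lines, most of it Apoe (45.5 and 53.5 CPM) and Ctsz (31 and 23.6 CPM). Of 13 trophoblast genes tested Rhox5 was called lower and Fgfr2 higher, and Elf5, a defining marker, was at 0.14 and 0.102 CPM in the lines and 0 to 2.71 CPM in the epiblasts. The summed trophoblast list was 211 and 130.3 CPM against 137 to 510.4 CPM. Of 7 fibroblast genes 3 were called higher (Col3a1, Postn and Fbn1), the sum being 35.3 and 48.4 CPM against 12.8 to 28.3 CPM, and Lum was not counted in the lines and Col1a1 not called. The part of fibroblast transcripts in the higher Vim, Acta2 and Tnc was not tested. Of 4 decidual and blood genes tested Cd68 was called higher (5.37 and 8.26 CPM against 0.93 to 3.6 CPM), and Hbb-bs, Lyz2 and Prl8a2 were at 0 in both lines.

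Both WT lines held Y chromosome transcripts (Ddx3y at 93.9 and 85.5 CPM) and little Xist (1.56 and 2.53 CPM). Epiblasts 1, 6, 8 and 9 had 18.3 to 70.5 CPM of Xist and 49.1 to 55.2 CPM of Ddx3y. The other 5 had 948 to 1176 CPM of Xist. Of these, epiblasts 2 and 3 also held Ddx3y (6.39 and 5.03 CPM), where 4, 5 and 7 had 0 to 1.11 CPM. The source of Ddx3y in epiblasts 2 and 3 was not tested. Xist passed as a large difference (adjusted p = 0.047), which cannot be told apart from the sexes of the libraries, and its call was lost in 10 of 22 settings. Of the 13 mitochondrially encoded protein genes 6 were called higher, none was large, and the median was 0.97. Their summed level was 18969 and 24494 CPM in the lines and 9479.8 to 18854 CPM in the epiblasts.

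Taken by size alone among protein-coding genes with a group mean of at least 10 CPM, the 12 higher genes were Acta2, Mctp1, Klhl4, Ano3, Tnc, Gad2, Creb5, Svop, Lynx1, Cpeb1, H2-K1 and Samd9l. Lynx1, a modulator of nicotinic receptors, had 30.3 and 27.7 CPM in the lines and 0 to 1.24 CPM in the epiblasts, and Svop, a synaptic vesicle protein, 20.1 and 20.4 CPM against 0 to 0.814 CPM. Their log2 fold changes were 6.65 and 7.09 (adjusted p = 0.0012 and 0.0023). Gad2, a glutamate decarboxylase, had 27.6 and 7.52 CPM in lines 8 and 13, and Ano3, a channel family member, 8.32 and 42 CPM, so for these the lines differed more than 3-fold in opposite directions while each epiblast stayed under 0.5 CPM. Tnc, the matrix protein tenascin C, had 7.86 and 26.7 CPM against 0 to 0.333 CPM and a median of 13.6 CPM at E7.5. Klhl4 (27.1 and 38.9 CPM against 0 to 0.424 CPM) and Cpeb1, a regulator of polyadenylation in germ cells and neurons (35.7 and 31.8 against 0 to 0.928 CPM), were alike in both lines.

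The 12 lower genes were 4930447C04Rik, Ttr, Nxf7, Apob, Ap1m2, Trim25, Slfn9, Fmr1nb, Hnf4a, Dnmt3l, Apoa1 and Gm17067. Of these Ttr, Apob, Hnf4a and Apoa1 belong to the visceral endoderm list. Trim25, a ubiquitin ligase of the antiviral RIG-I pathway, had no count in line 8 and 0.11 CPM in line 13 and 51.2 to 113 CPM (median 58.7) in the epiblasts, a log2 fold change of -10.13 (SE 0.79, adjusted p = 8.3e-07). Slfn9, a Schlafen family member, had at most 0.047 CPM in the lines and 12.1 to 40.4 CPM (median 31.5) in the epiblasts, a log2 fold change of -10.07 (SE 0.75, adjusted p = 3.1e-07). Ap1m2, an adaptor subunit of epithelial sorting, had at most 0.0314 CPM against 35.4 to 48.4 CPM (log2 fold change -11.08, SE 0.47, adjusted p = 2.3e-09). In these 3 genes every epiblast lay above both lines, which were close to no counts. Nxf7, an X-linked RNA export factor, had no count in the lines and 1.08 to 46.9 CPM in the epiblasts, by the epiblast mean at least 359.9-fold lower.

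Set against the WT stages, both lines had their highest median correlation with E6.5. The paper, citing earlier work, gives EpiSCs of the original culture conditions an anterior streak identity of mid-gastrulation, whatever their stage of origin. Pearson's r across 15943 protein-coding genes (log2 CPM, prior count 2) had medians of 0.885 and 0.882 for lines 8 and 13 with the 9 E6.5 epiblasts, 0.858 and 0.852 with the 9 E7.5 epiblasts and 0.821 and 0.817 with the 2 E5.5 epiblasts. These are descriptions across genes, the points share a library, and the epiblast libraries of the 3 stages were made with 1 kit. Within E6.5 the values ran from 0.825 (epiblast 3) to 0.892 (epiblast 8) for line 8, and epiblasts 1 to 4 (0.825 to 0.871) lay below 5 to 9 (0.885 to 0.892). Within E7.5, epiblast 3 stood apart at 0.889 and 0.885, where the others had 0.844 to 0.863 with line 8 and 0.839 to 0.857 with line 13. That library held 596 CPM of Pou5f1, 155 CPM of Fgf5, 73.3 CPM of Foxd3 and 5.45 CPM of T, levels like those at E6.5. The medians kept the order E6.5, E7.5, E5.5 with Spearman's rho and with the 500 or 2000 most variable genes, where r with E6.5 fell to 0.327 and 0.336 over 500 genes. The lines correlated at 0.987 with each other.

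**Figure D4:**
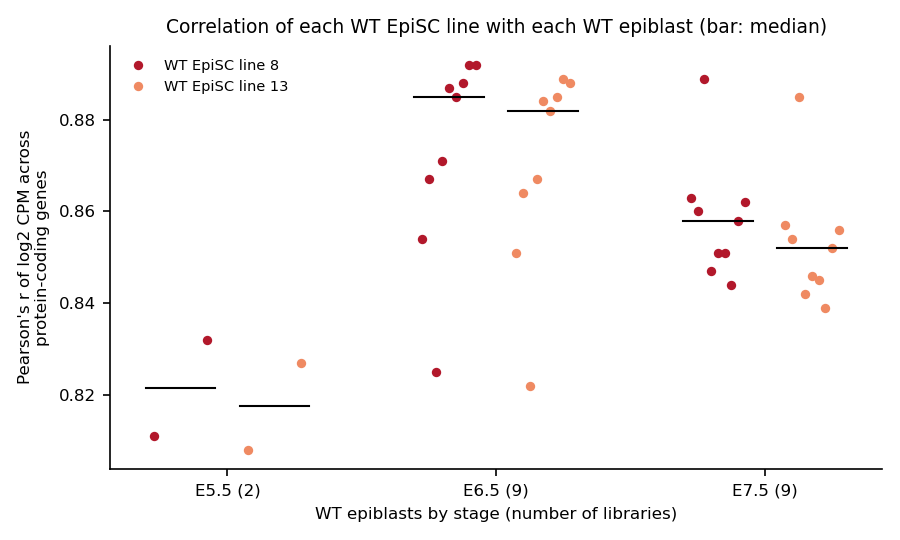
Pearson's r of each WT EpiSC line with each WT epiblast across 15943 protein-coding genes (vertical axis; log2 CPM) by stage and number of libraries (horizontal axis), with 1 point for each pair and a bar for the median. The E6.5 medians of 0.885 and 0.882 are above those of E7.5 and E5.5, epiblast 3 of E6.5 is the low point of its stage and epiblast 3 of E7.5 the high point of its own.

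Part of the large differences were within the range of the next day of development. Both lines fell within the range of the 9 E7.5 epiblasts in 92 of the 476 higher genes (19.3%) and in 105 of the 530 lower genes (19.8%), and without E7.5 epiblast 3 in 79 and 105. In 338 of the higher genes both lines lay above all 20 WT epiblasts of the 3 stages, and in 393 of the lower genes below all of them. The rule for a large difference had already put both lines outside the E6.5 epiblasts. Only the E5.5 and E7.5 epiblasts add to these counts, and the shares over all genes tested were not taken. Ccnd2 and Shh were among those within the E7.5 range, and Lefty1, Egr1, Cdkn1a, H2-K1 and B2m among those above all 20.

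In the null lines Stat3 itself had 3.17 and 3.52 CPM, below the 17.8 and 23 CPM of the WT lines. The Stat3 null libraries, which share no sample with the WT comparison but the same kits, gave 662 large differences of 20864 genes tested (3.17%) between null EpiSC lines and null E6.5 epiblasts. Of the 1006 WT differences 954 were tested there, 940 had the same direction and 469 were called in it. Large in both were 418, which is 41.6% of the WT list and 63.1% of the null list. The same shares over all genes tested in both were not taken, and kit, purification and culture go with the group in both comparisons. Of the genes described above, those large in both included Lefty1, Egr1, Cdkn1a, H2-K1, B2m, Ncam1, Tbx3, Zfp42 and Dppa5a. Also among them were Ddx4, Sycp3, Dnmt3l, H19, Kcnq1ot1, Krt8 and Krt18. Dnmt3b, Vim, Ccnd2 and Zeb1 were among those not large in the null comparison, with log2 fold changes of -2.04, 2.62, 2.74 and 3.13 there. So were Mael, Evx1, Sox1, Junb, Atf3, Btg2, Snai2, Ctgf, Plagl1, Tap1, Gad2, Creb5 and Samd9l, all with the WT direction. Bcl3, Col3a1 and Xist had null values of -1.14, -0.50 and 0.43, opposite in sign to WT and not called, and Notum and Postn were not tested there. A difference between genotypes was tested as an interaction, a test added after the data were seen, and it passed for 4 of 22487 genes (0.0178%), 3 of them among the large WT differences and none on a gene list. Claudin 7 (Cldn7), an epithelial junction gene chosen after its values were seen, had 3.42 and 2.86 CPM in the WT lines, 27.1 and 28.8 CPM in the null lines, 25.2 to 38.9 CPM in WT and 18.6 to 48.7 CPM in null E6.5 epiblasts (interaction -2.94 on the log2 scale, adjusted p = 0.0012). So the WT lines alone were low in Cldn7. Ap1m2 was low in all 4 lines, at most 0.0314 CPM in WT and 1.06 and 0.371 CPM in null lines (interaction -5.48, adjusted p = 0.0012). Of the pseudogenes, Gm9625 had 63.3 and 58.8 CPM in WT and 1.72 and 1.65 CPM in null lines (4.82, adjusted p = 0.007), and Gm4366, which was not a large difference, 186 and 313 CPM against 67 and 61.9 CPM (1.80, adjusted p = 0.00015).

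**Figure D5:**
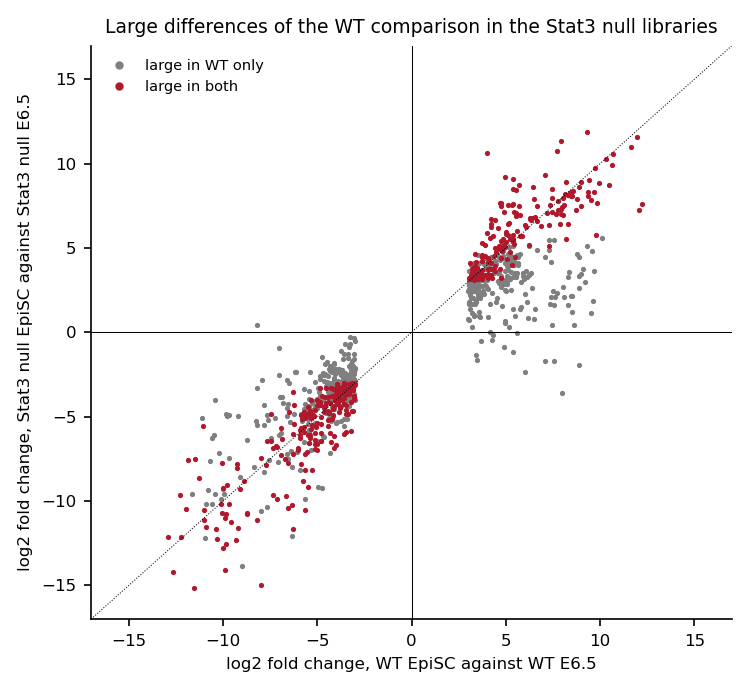
Log2 fold change of EpiSC lines against E6.5 epiblasts in WT (horizontal axis) and Stat3 null (vertical axis) for the 954 large WT differences tested in both, in red where large in both (418) and grey otherwise. Of the points, 940 lie in the quadrants of the same direction, and the dotted line marks equal changes.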

How the data were processed

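Gene-level read counts were deposited as tables by the authors, who per the submitters' processing notes and the methods used Trim Galore, HISAT2 and StringTie on GRCm38. The strand setting and the annotation version are not given in the sources used here. Counts were joined on gene identifier, and GENCODE vM21 gave positions and types for 47224 of 47643 genes. CPM is a gene's count over the library's total, times 1e6. WT EpiSC lines (n = 2) and WT E6.5 epiblasts (n = 9) were compared with edgeR 4.0.16 (R 4.3.3; TMM scaling, filterByExpr with a minimum count of 10 and a total of 15, robust quasi-likelihood fit, two-sided), and p-values were adjusted over all tested genes after Benjamini and Hochberg. The Stat3 null lines and epiblasts were fitted in the same way, and the difference between genotypes as an interaction. Ranks used counts per exon length. DESeq2 1.42.0, other scalings and filters, thinning, other sets of epiblasts and leaving out each library were alternatives. 1 list member is not reported here by name. Named genes were members of 27 gene lists and the 12 protein-coding genes with the largest changes in each direction. Of genes named in other ways, Cldn7, Gm9625, Gm4366, H2-M3 and H2-Q6 were chosen after their values were seen. The members and lists were chosen with earlier results of these data known. Nothing says how many cultures stand behind a line, so p-values measure the spread between these libraries, which may in part be technical. Limits from a count of 0 cover counting error only.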

Additional observations from a re-analysis of the deposited data

Results flagged for a closer look

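In the 9 WT E6.5 epiblasts, 42 of 225 levels examined (gene lists and named genes, log2 of CPM plus 1) held a sample whose gap to the nearest other sample passed Dixon's 95% critical value as a share of the group's range. Chance gives such a gap in about 1 of 20 groups, and the genes share the same samples. Epiblast 3, with the highest visceral endoderm sum, was the lowest sample for the summed cell cycle list (3211 CPM), Pou5f1 (398 CPM), Foxd3 (27 CPM), Zic2 (83.7 CPM), Zic5 (61.4 CPM), Ncam1 (0), Acvr2b (50.1 CPM), Snrpn (116 CPM) and Dnmt1 (302 CPM). It was the highest for the summed cytoskeletal list (759 CPM), Klf2 (1.27 CPM), Spry4 (143 CPM), Junb (17.4 CPM), Cdkn1c (44.1 CPM), Zeb1 (7.72 CPM), Cyr61 (44.5 CPM), Krt18 (251 CPM), Grb10 (601 CPM) and Dnmt3l (132 CPM). Epiblast 1 was the lowest for the summed core pluripotency list (2558 CPM), L1td1 (336 CPM), Zfp281 (88.3 CPM), Tfap2c (0), Fgfr2 (1.41 CPM), Socs3 (0), Btg2 (0.508 CPM) and Slfn9 (12.1 CPM), and the highest for Acvr1b (62.8 CPM), Ndrg1 (30.8 CPM) and Tet2 (22.7 CPM).

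The other epiblasts that stood apart were the highest of their group. Vim (35.6 CPM) and Hbb-bs (2.41 CPM) peaked in epiblast 4, and Prl8a2 (0.59 CPM) in epiblast 6. Bcl3 (0.277 CPM), Postn (0.104 CPM), Mctp1 (0.139 CPM) and Ano3 (0.381 CPM) peaked in epiblast 5, and Smad2 (43.2 CPM), Klhl4 (0.424 CPM), Tnc (0.333 CPM), Lyz2 (0.242 CPM) and Lum (0.242 CPM) in epiblast 8. Several of these are a few counts in libraries where the rest had none.

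The change from E6.5 epiblast to EpiSC differed between WT and Stat3 null in the edgeR interaction test for Ap1m2 (-5.48 on the log2 scale, adjusted p = 0.0012), Cldn7 (-2.94, adjusted p = 0.0012), Gm9625 (4.82, adjusted p = 0.007) and Gm4366 (1.80, adjusted p = 0.00015). Each genotype had 2 EpiSC lines.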

How the results depend on the processing

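The WT EpiSC side holds 2 libraries, and leaving out a library moved the counts of genes called between 2695 and 4830 and of large differences between 552 and 1219. Without EpiSC line 13 there were 2695 called and 552 large, and without line 8 there were 2744 and 565, the lone line then being assumed to vary like the epiblasts. Large differences, 1006 in the report, numbered 1579 with epiblasts 1 to 3 alone, 1519 with 4 to 9 alone, 1605 without 1 to 4 (added after seeing the data), 1663 with no filter on low counts and 602 with protein-coding genes only, which tests fewer genes. The share of large differences that were higher in EpiSCs, 47.3% in the report, moved to 32.5% with DESeq2, 35.2% with a mean count of at least 50, 71% with no filter and 76.6% with epiblasts 1 to 3 alone. The median log2 fold change of all genes moved to 0.21 and 0.12 under the last 2. The cause was not tested. The mean of the 2 lines' median correlations with E6.5 (0.883) was 0.909 with Spearman's rho and 0.332 and 0.384 over the 500 and 2000 most variable genes, and the mean of their median core ranks (304) was 445 without division by length. Of 122 named genes called, 49 stayed called in all 23 alternatives, and of 67 large ones 28 stayed large. Wnt3, Dnmt3l, Tbx3, H19, Krt8, Apob, Hnf4a and Gsc were among the genes whose calls were lost without either line. Signs turned for Bmp2 (1.26 without epiblasts 1 to 4), Id1 (1.04 with 4 to 9 alone and 1.01 without 1 to 4) and Ifit1 (6.79 with 1 to 3 alone), none of them called in the report. No paired analysis was possible, since the numbers of lines and epiblasts are sample labels and nothing in them links a line to an epiblast. Differences under about 3 counts in a library were not detectable at this depth.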
